A study of Homo sapiens with 8 samples.

Results

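The interferon regulatory factor (IRF) family was described in Kasumi-1 cells after knock-down of RUNX1/ETO, the fusion protein that the t(8;21) translocation of this human myeloid leukaemia line makes. The members were all probes that the platform annotation assigns to IRF1, IRF2, IRF3, IRF4, IRF5, IRF7, IRF8 or IRF9, which gave 12 of 47230 probes on the Illumina bead array and 8 of 20046 named genes. Cells were electroporated every few days with 200 nM of an siRNA against RUNX1/ETO (siRE) or of a mismatch siRNA (siMM). RNA was read at 48, 96, 168 and 240 h, with 1 array per siRNA and time and 8 arrays in all. The 48 and 96 h arrays followed 1 electroporation, the 168 h arrays 2 and the 240 h arrays 3, the last one 72 h before harvest at both late times. All arrays come from the same cell line, the siMM arm is the only control, and no label says whether the times of an arm were separate cultures. The p-values therefore cover only the spread among these arrays, which may be technical. For siRE against siMM this is the spread of the siRNA difference between times, which also holds any change with time. An SD over the arrays of an arm likewise spans the times.

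IRF proteins are transcription factors that share a DNA-binding domain and bind GAAA repeats in the promoters of interferon genes and interferon-induced genes. IRF3 and IRF7 switch on interferon genes after pathogen sensors and the kinase TBK1 have activated them, IRF5 acts below Toll-like receptors, and IRF9 is the DNA-binding subunit of ISGF3, the complex that answers type I interferon. IRF1 activates and IRF2 mostly represses a shared set of targets. IRF4 and IRF8 are found mainly in blood cells and often bind DNA with the ETS factor PU.1. IRF8 directs progenitors towards monocytes and dendritic cells and away from granulocytes.

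The authors deposited normalized log values, which were read here as log2, so a difference of 1 is 2-fold if that scale is plain log2. A probe was tested if it exceeded a background cut-off of 5.90 on at least 2 of the 8 arrays. This held for 9 of the 12 IRF probes and 7 of the 8 genes, all but IRF4, against 14644 of all probes. RUNX1T1, the gene of the ETO part of the fusion, fell by 1.38 (SE 0.13, limma adjusted p = 0.000197) at its brightest probe, which checks the siRNA labels. The myeloid blast markers MPO and KIT stood at 14.15 and 11.11 in siMM and at 14.04 and 10.98 in siRE, and CD34 was lower by -1.87 in siRE, a call lost in 4 of 11 alternative settings. The number of arrays limits the precision throughout.

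Promoter windows are shown for the 2 genes that passed the test, IRF8 and IRF1, as the 250 bases before a transcription start in RefSeq on GRCh38.p14. 5 motifs were searched on both strands: GAAA, any 2 bases and GAAA, the repeat that IRF proteins bind (the IRF repeat), GGAA, any 2 bases and GAAA, a joint ETS and IRF site, TTCNNNGAA, the GAS element that STAT dimers bind, and TGTGGT and TGCGGT, forms of the RUNX core. Matches are in capitals.

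IRF1 (chr5:132490774-132491023, minus strand): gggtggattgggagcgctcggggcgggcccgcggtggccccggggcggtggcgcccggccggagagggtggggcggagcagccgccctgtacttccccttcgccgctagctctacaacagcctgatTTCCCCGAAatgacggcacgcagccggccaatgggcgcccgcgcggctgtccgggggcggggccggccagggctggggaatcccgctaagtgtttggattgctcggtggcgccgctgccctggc
IRF8 (chr16:85902580-85902829, plus strand): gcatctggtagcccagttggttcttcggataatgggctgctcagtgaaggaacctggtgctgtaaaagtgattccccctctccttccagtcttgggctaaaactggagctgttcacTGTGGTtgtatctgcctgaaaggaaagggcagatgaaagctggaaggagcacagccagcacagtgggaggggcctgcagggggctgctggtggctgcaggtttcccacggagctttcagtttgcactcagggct

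The IRF1 window held a GAS element, TTCCCCGAA, from 124 to 116 bases before the start, and none of the other motifs. The IRF8 window belongs to a start 3668 bases inside the annotated gene. It held 1 RUNX core, TGTGGT, from 134 to 129 bases before that start. A second IRF8 start, 3853 bases inside the gene, held none of the 5 motifs. No window before the gene's own first base was available, so the bases there were not searched. Of 35116 windows of this length, 6.57% held TTCNNNGAA, 11% TGTGGT, 5.84% TGCGGT, 3.02% the IRF repeat and 2.41% the joint site. Among the other members, the IRF9 window held TTCTGGGAA, and of 4 IRF5 windows 1 held TGCGGT and another TGTGGT with the joint ETS and IRF site. IRF4 held none. These matches are letters in a window and were not set against binding data. IRF2, IRF3 and IRF7 were not matched in the promoter table.

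The main question was which IRF genes differed between siRE and siMM. IRF8 was higher and IRF1 lower in siRE, and the other 5 tested genes did not pass. The IRF1 call is the weaker one, since the probe passed the filter through siMM alone and the call was lost in 4 of 11 alternative settings, against 0 of 11 for IRF8. Over all tested probes 6.07% passed, 3.27% higher and 2.80% lower, against 1 higher and 1 lower among the 9 IRF probes. Per gene, at the brightest tested probe, 7.10% of 8830 genes passed. With 7 tested IRF genes, 2 calls are too few to set the family apart from the array. The median difference of the 7 was 0.04, beside -0.04 over all genes.

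**Figure D1:**
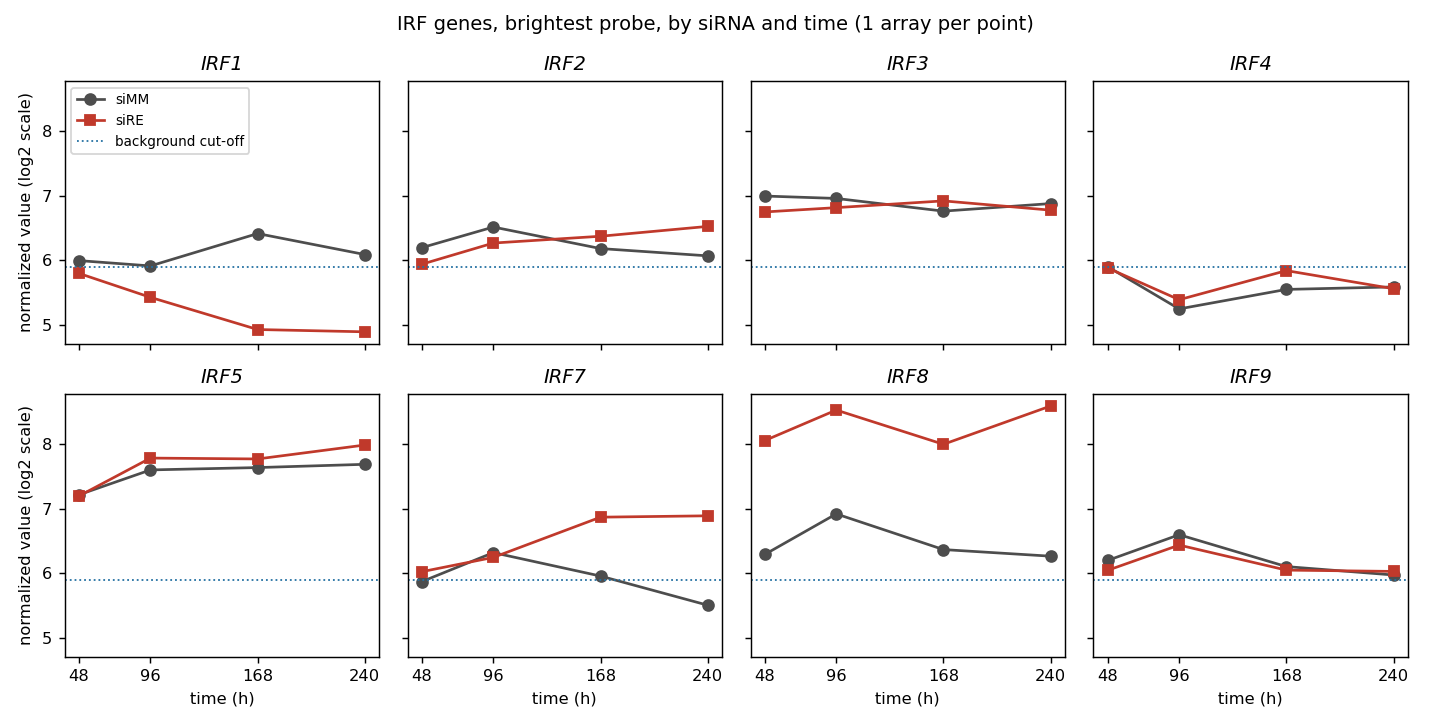
Normalized value on the log2 scale (vertical axis) against time in h (horizontal axis) for the brightest probe of each IRF gene, 1 array per point, with the background cut-off of 5.90 dotted. IRF8 is higher in siRE at all 4 times, IRF1 is lower and below the cut-off throughout siRE, IRF7 separates at 168 and 240 h, and IRF4 stays at or under the cut-off.

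IRF8 (ILMN_1666594, chr16:85899162-85922609) read 6.29, 6.92, 6.37 and 6.26 in siMM and 8.06, 8.53, 8.00 and 8.60 in siRE at 48, 96, 168 and 240 h. The arms did not overlap: the lowest siRE array, at 168 h, lay 1.08 above the highest siMM array, at 96 h. Arms separated in this way were seen for 10.1% of tested probes, with siRE above for 5.01% and below for 5.11%. The mean rose from 6.46 ± 0.31 to 8.30 ± 0.31 (SD, n = 4 arrays each), by 1.84 (SE 0.15, limma adjusted p = 0.000119), or 3.57-fold. A larger rise was found for 0.374% of the 8830 genes.

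The IRF8 difference was present at the first time sampled. It was 1.77, 1.61, 1.63 and 2.33 at 48, 96, 168 and 240 h, each beyond 2-fold, a size reached in either direction by 0.867%, 1.71%, 3.63% and 8.46% of tested probes at the same times. Within siRE the highest array (240 h) and the next (96 h) were 0.06 apart, and the 48 and 168 h arrays were also 0.06 apart. These steps are smaller than the residual spread of the probe (0.24), so the order of times within each of these neighbouring pairs was not resolved. In siMM the 96 h array stood 0.55 above the next one, while the other 3 lay within 0.10 of each other. The change of the difference per day was 0.07 (SE 0.04, limma adjusted p = 0.458), and it was -0.02 without the 240 h arrays.

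IRF8 is known from monocytes and dendritic cells, so markers of both were read beside it. Of 10 monocyte and macrophage marker genes, 8 never exceeded the cut-off, among them CD14 and ITGAM, and the mean over the 10 ranged from 5.53 to 5.68 in siMM and from 5.54 to 5.74 in siRE. Both tested markers moved in opposite directions: CSF1R, the macrophage colony-stimulating factor receptor, rose by 0.98, while FCGR1A, an Fc receptor, was lower at all 4 times and did not pass (-0.32, limma adjusted p = 0.209). Of 12 dendritic cell marker genes, 1 was tested and did not pass, and their mean ranged from 5.08 to 5.31 in siMM and from 5.20 to 5.31 in siRE. In a bulk sample, a change in the number of cells that express a gene and a change in RNA per cell cannot be told apart.

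IRF1 (ILMN_1708375, chr5:132481609-132490773), an activator of interferon-gamma targets, read 5.99, 5.91, 6.41 and 6.09 in siMM and 5.79, 5.42, 4.92 and 4.89 in siRE at 48, 96, 168 and 240 h. All 4 siMM arrays were only just above the cut-off and all 4 siRE arrays were below it, so the probe entered the test through siMM alone. The mean was 6.10 ± 0.22 in siMM and 5.26 ± 0.43 in siRE (SD, n = 4 arrays each), which differ by -0.84 (SE 0.20, limma adjusted p = 0.0325). Since siRE is below background, the fall is bounded as at least 1.15-fold. The difference was -0.20, -0.49, -1.49 and -1.20 in order of time, and its change per day of -0.15 (SE 0.05) did not pass (limma adjusted p = 0.15). The call ended with the arrays of 96 h (-0.96, limma adjusted p = 0.089), of 168 h (-0.63, 0.211) or of 240 h (-0.73, 0.0786) left out, and with values below the cut-off set to it (-0.20, 0.34).

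IRF7 (chr11:612555-615950), the inducer of interferon alpha genes, did not pass the test, with its 2 arms apart at the late times. Its brightest probe (ILMN_1798181) read 5.87, 6.32, 5.95 and 5.50 in siMM and 6.02, 6.25, 6.87 and 6.89 in siRE. The siRE arrays of 168 and 240 h lay above all siMM arrays, while those of 48 and 96 h lay within the siMM range. The difference was 0.15, -0.07, 0.91 and 1.39 in order of time. The siMM arrays of 48 and 240 h lie below the cut-off, so the differences at these times are not exact, and with such values set to the cut-off the mean difference was 0.49. As measured, the mean over the 4 times, 0.60 (SE 0.22), did not pass (limma adjusted p = 0.133), nor did its change per day of 0.18 (SE 0.04, limma adjusted p = 0.0779). The change per day passed once the arrays of 48 h (0.24, limma adjusted p = 0.0484) or of 168 h (0.17, 0.0481) were left out. It did not pass without those of 96 h (0.15, limma adjusted p = 0.211) or of 240 h (0.17, 0.477). With no filter on dim probes (limma adjusted p = 0.17) or electroporation number in place of day (0.0635) the change also missed the threshold. Over all tested probes 0.949% passed this test of change with time.

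**Figure D2:**
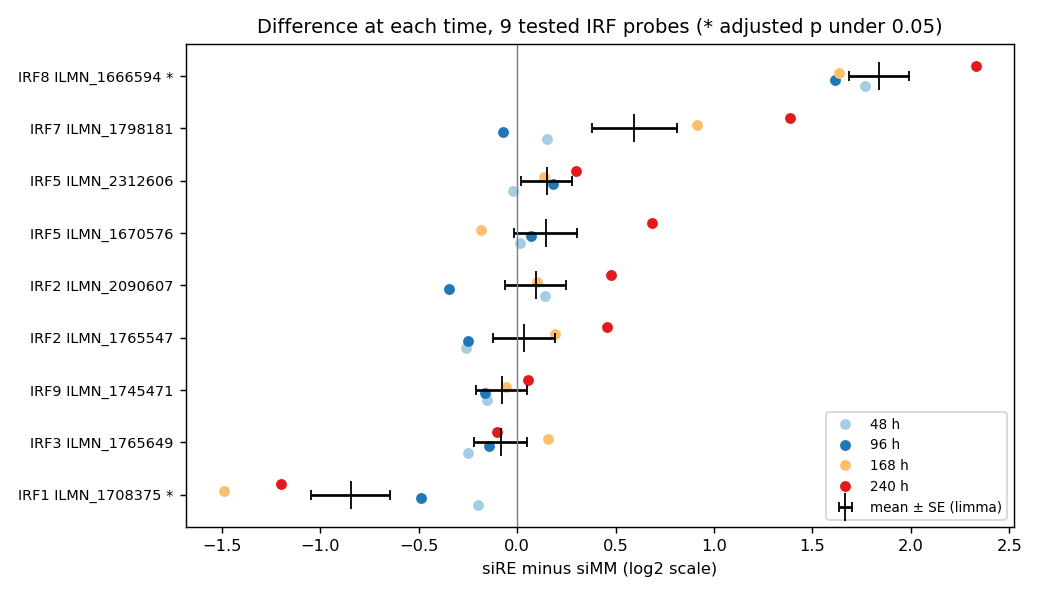
Difference of siRE minus siMM on the log2 scale (horizontal axis) for the 9 tested IRF probes (vertical axis), with 1 point per time and the limma mean ± SE as a black bar. IRF8 lies at 1.61 to 2.33 at all times, IRF1 is negative at all times, and the 168 and 240 h points of IRF7 (0.91 and 1.39, the latter against a siMM value below the cut-off) lie apart from its earlier ones.

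Both other IRF7 probes were at or below background. ILMN_2349061, annotated to the same transcript record as the brightest one, read 5.45, 5.41, 5.12 and 5.15 in siMM and 5.64, 5.73, 5.75 and 5.89 in siRE. The arms did not overlap although every value was under the cut-off, and the differences were 0.19, 0.32, 0.63 and 0.74 in order of time. With no filter on dim probes its mean difference was 0.47 (SE 0.15) and did not pass (limma adjusted p = 0.155). ILMN_1674646, annotated to another IRF7 transcript, ranged from 4.65 to 4.83 in siMM and from 4.69 to 5.07 in siRE, and the arms overlapped.

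**Figure D3:**
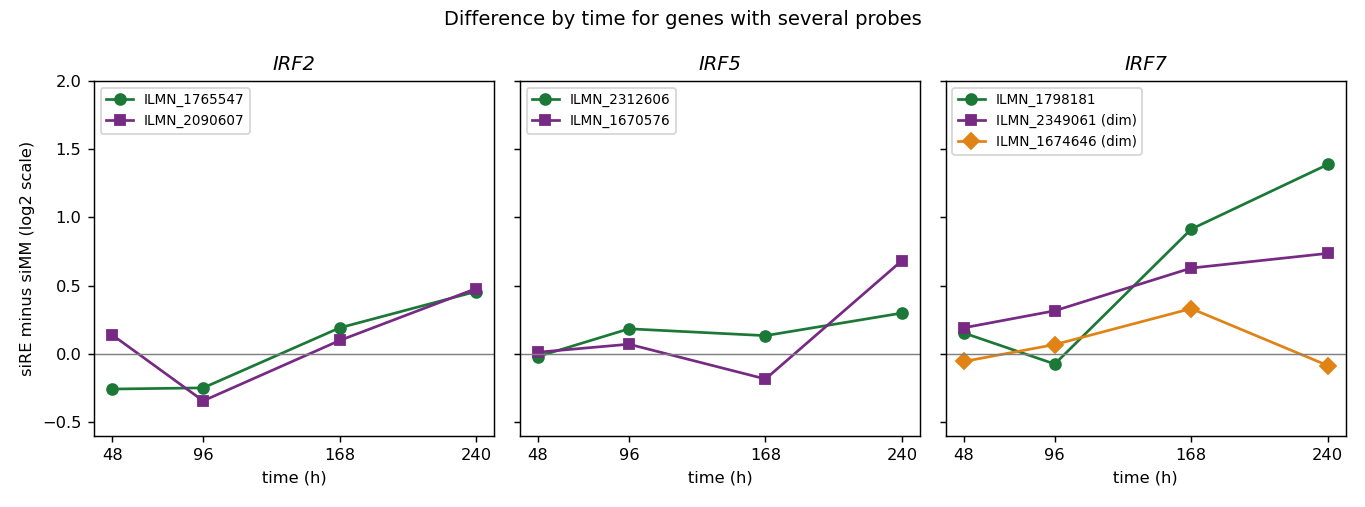
Difference of siRE minus siMM on the log2 scale (vertical axis) against time in h (horizontal axis) for each probe of IRF2, IRF5 and IRF7, where "dim" marks probes not tested. Both upper IRF7 probes end at 1.39 and 0.74, both IRF2 probes end near 0.5 (0.46 and 0.48), and the IRF5 probes part at 168 and 240 h.

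IRF5 (chr7:128937032-128950038) was read by 2 probes above the cut-off on all 8 arrays. ILMN_2312606 read 7.22, 7.60, 7.64 and 7.69 in siMM and 7.20, 7.79, 7.77 and 7.99 in siRE in order of time, a mean difference of 0.15 (SE 0.13, limma adjusted p = 0.533). In both arms 48 h was the lowest array. ILMN_1670576 had the same mean difference, 0.15 (SE 0.16, limma adjusted p = 0.629), but it stood at -0.18 at 168 h and at 0.68 at 240 h, and without the 240 h pair it was -0.03. The arms overlapped for both probes.

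IRF2 (chr4:184387729-184474550), the mostly repressing counterpart of IRF1, read 6.19, 6.51, 6.18 and 6.07 in siMM and 5.94, 6.27, 6.37 and 6.52 in siRE at ILMN_1765547. The siRE array was lower at 48 and 96 h (-0.26 and -0.25) and higher at 168 and 240 h (0.19 and 0.46). The mean difference was 0.04 (SE 0.16, limma adjusted p = 0.915), and the change per day of 0.10 (SE 0.04) did not pass (limma adjusted p = 0.242). The second probe, ILMN_2090607, was above the cut-off on 3 arrays and differed by 0.09 (SE 0.15, limma adjusted p = 0.758), with 0.48 at 240 h.

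IRF3 and IRF9 differed between the arms by at most 0.25 at any time. IRF3 (ILMN_1765649, chr19:49659572-49665857), the constitutive factor below TBK1, read 7.0, 6.96, 6.76 and 6.88 in siMM and 6.75, 6.82, 6.92 and 6.78 in siRE. Its 8 arrays spanned 0.25, and the difference was -0.08 (SE 0.13, limma adjusted p = 0.752). IRF9 (ILMN_1745471, chr14:24161265-24166565) read 6.20, 6.60, 6.10 and 5.97 in siMM and 6.04, 6.44, 6.05 and 6.03 in siRE, a difference of -0.08 (SE 0.13, limma adjusted p = 0.758). Both arms of IRF9 were highest at 96 h. A p that misses the threshold does not show that these genes were equal in the 2 arms.

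IRF4 (ILMN_1754507, chr6:391752-411443), known from lymphoid and dendritic cells, never exceeded the cut-off. It ranged from 5.24 to 5.90 in siMM and from 5.39 to 5.88 in siRE, the top value lying just under the unrounded cut-off. With no filter its difference was 0.10 (SE 0.14, limma adjusted p = 0.885). Of 8 B and plasma cell marker genes, 5 never exceeded the cut-off, among them MS4A1 and PAX5, and 3 were tested. None of the 3 passed, but CD79B, a B cell receptor chain, lay lower in siRE with no overlap of the arms (7.99 against 7.51, limma adjusted p = 0.063), and SDC1, a plasma cell surface protein, was lower at all 4 times (a difference of -0.53, limma adjusted p = 0.103). The mean over the 8 genes ranged from 5.61 to 5.78 in siMM and from 5.5 to 5.6 in siRE, and its part in the IRF values was not tested.

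No IRF probe passed a test of its slope over time in the mismatch control: the 9 siMM slopes ran from -0.06 to 0.05 per day, each with a limma adjusted p of 1.00. By limma 0 of 14644 probes (0%) passed that test, and 271 of them but no IRF probe had an unadjusted p under 0.05. Within siRE the steepest slopes were those of IRF7 (0.12 per day, limma adjusted p = 0.118) and IRF1 (-0.12, 0.102), while 2.01% of all tested probes passed. All siRE values of IRF1 lie below the cut-off, so its slope is uncertain. IRF8 had a siRE slope of 0.04 per day (limma adjusted p = 0.679).

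Genes of the same pathway were then counted from lists chosen with earlier results of these data known, so their shares are not independent support. Of 13 tested genes of interferon receptors and JAK-STAT signalling, 2 were higher and 1 lower, against a background of 3.76% of genes higher and 3.34% lower, with a median difference of 0.25. IFNGR1, the ligand-binding chain of the interferon-gamma receptor, read 7.41, 7.39, 7.36 and 7.22 in siMM and 7.73, 8.30, 8.30 and 8.79 in siRE, a rise of 0.93 (SE 0.18, limma adjusted p = 0.0128). PTPN6, a phosphatase that dampens JAK signalling, rose by 0.78 (SE 0.16, limma adjusted p = 0.0144), and STAT5A, a mediator of cytokine signals, fell from 9.53 to 8.99 (limma adjusted p = 0.0353). The calls of IFNGR1 and PTPN6 ended without the 96 h pair (0.94 and 0.84) or the 168 h pair (0.93 and 0.85), and that of STAT5A without any one pair (-0.59 to -0.49, limma adjusted p between 0.0679 and 0.175), without the time block and with no filter. With values below the cut-off set to it, IFNGR1 also missed the threshold (0.0558). Over all tested probes of this list, 3 were higher. IL10RB, named after its values were seen, did not pass at its brightest probe. Its second probe ranged from 7.43 to 7.68 in siMM and from 8.16 to 8.26 in siRE.

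Upstream of IRF3, IRF5 and IRF7, 2 of 15 tested genes of sensing were higher and 0 lower by limma. This is 13.3% beside 7.10% of all genes, with a median difference of -0.01. At an unadjusted limma p under 0.05 the counts were 3 and 0, beside 3328 of all 14644 tested probes. Both genes that passed act at the kinase TBK1. STING1, the adaptor of cytosolic DNA sensing, read 8.24, 8.49, 8.14 and 8.20 in siMM and 9.01, 9.40, 9.80 and 9.81 in siRE, a rise of 1.24 (SE 0.17, limma adjusted p = 0.00198). AZI2, an adaptor that binds TBK1, read 7.11, 7.71, 7.45 and 6.95 in siMM and 7.76, 8.61, 8.76 and 8.56 in siRE, a rise of 1.12 (SE 0.17, limma adjusted p = 0.00299). The arms of both genes did not overlap, for AZI2 only narrowly (7.71 at most in siMM, 7.76 at least in siRE). Of all tested probes, 5.01% had siRE above siMM in this way. The calls of both genes held in all 11 alternative settings. Named after their values were seen, TBK1 stood at 0.01 and its relative IKBKE at -0.13 (limma adjusted p = 0.966 and 0.622).

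Of 17 tested partners and regulators of IRF proteins, 1 was higher and 0 lower by limma, which is 5.88% beside 7.10% of all genes. At an unadjusted limma p under 0.05 the counts were 5 and 1, beside 3328 of all 14644 tested probes. IRF2BP2, a corepressor that binds IRF2, rose by 0.53 at its brightest probe (SE 0.13, limma adjusted p = 0.0364) and by 0.86 at a second one (limma adjusted p = 0.00515). The call of the brightest probe ended without any one pair (0.50 to 0.57), without the time block and with no filter. PU.1, the partner of IRF8 and IRF4, is encoded by SPI1, which was also named after its values were seen. It read 9.52, 9.83, 9.98 and 9.64 in siMM and 10.10, 10.63, 9.86 and 9.94 in siRE, with overlapping arms and a difference of 0.39 (SE 0.16, limma adjusted p = 0.185).

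Interferon genes themselves were near background: of 30 probes for 21 of them, 1, for IFNA21, exceeded the cut-off on 1 array. Of 44 genes induced through ISGF3, 21 were tested, of which 1 was higher and 3 lower (19%, beside 7.10% of all genes), with a median difference of 0.00. TNFSF10, the death ligand TRAIL, exceeded the cut-off in no siMM array, so its rise in siRE is bounded as at least 1.72-fold (limma adjusted p = 0.000431), a call that ended with values below the cut-off set to it (limma adjusted p = 0.0564). UBE2L6, the conjugating enzyme of ISG15, moved by -0.81, from 8.43 to 7.61 (SE 0.15, limma adjusted p = 0.00872), while its second probe stood at -0.45 and did not pass (limma adjusted p = 0.0977). IFITM3, a membrane protein that blocks viral entry, changed by -0.73 and LY6E, a surface protein, by -0.63 (limma adjusted p = 0.0453 and 0.02). The calls of UBE2L6, IFITM3 and LY6E ended without the 96 h pair (-0.86, -0.92 and -0.64) and without the 168 h pair (-0.75, -0.56 and -0.59), and that of IFITM3 also with the 240 h arrays left out (-0.60, limma adjusted p = 0.119). Without the time block IFITM3 and LY6E missed the threshold (limma adjusted p = 0.0593 and 0.0759), as did IFITM3 with the floor at the cut-off (0.103). Copies of IFITM genes share sequence, so the IFITM3 value is uncertain.

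Of 34 targets of interferon gamma and IRF1, 9 were tested, of which 0 were higher and 1 lower by limma. This is 1 gene or 11.1% beside 7.10% of all genes, with a median difference of -0.10. At an unadjusted limma p under 0.05 the counts were 0 and 2, beside 3328 of all 14644 tested probes. PSME1, a proteasome activator subunit, moved by -0.56, from 11.35 to 10.79 (SE 0.13, limma adjusted p = 0.0292), a call that ended without the 96, 168 or 240 h pair (-0.55 to -0.53) and without the time block. Most of the listed targets, 25 of 34, stayed below the test's filter.

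Of 20 tested myeloid genes linked to IRF8, 5 were higher and 1 lower (30%, beside 7.10% of all genes), with a median difference of 0.32. Without the 168 h pair 3 were higher. CEBPE, a factor of late granulocyte development, read 7.77, 7.77, 7.54 and 7.65 in siMM and 9.60, 9.51, 8.96 and 8.96 in siRE, a rise of 1.58 (SE 0.14, limma adjusted p = 0.000197). AIF1, a monocyte protein, rose by 1.40 (SE 0.23), CSF1R by 0.98 (SE 0.16) and CEBPA, the main granulocyte factor, by 0.85 (SE 0.13), at limma adjusted p between 0.00399 and 0.00506. EGR1, an early-response factor, changed by -0.76 (SE 0.16, limma adjusted p = 0.0211). The calls of CSF1R and EGR1 ended without the 168 h pair (0.93 and -0.81), and that of EGR1 also with the 96 h arrays left out (-0.55, limma adjusted p = 0.116) or time dropped from the model (0.254), and with the floor at the cut-off (0.157). The fifth gene that rose, NCF1 (0.57), lies outside the rule for named genes and has near-identical copies that may share its probe. Its call was lost with no filter, without the time block and with the 96, 168 or 240 h arrays left out (limma adjusted p between 0.0529 and 0.194).

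**Figure D4:**
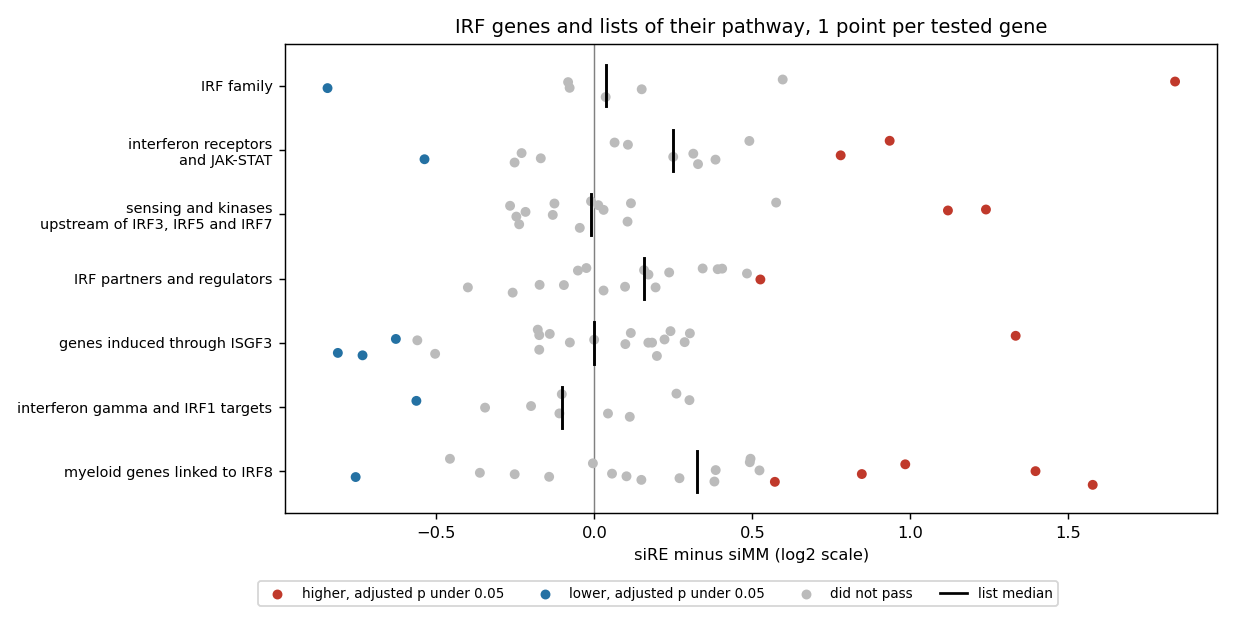
Difference of siRE minus siMM on the log2 scale (horizontal axis) for each tested gene of the IRF family and of 6 lists of its pathway (vertical axis), with list medians as black bars and called genes in colour. IRF8 has the largest difference shown at 1.84, and the medians lie between -0.10 and 0.32.

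Patterns most like those of IRF8 and IRF1 were sought by Pearson's r over the 8 arrays, which share the 2 arms, so a high r mostly follows the difference between arms. For IRF8 they were HSH2D, an adaptor protein of blood cells (r = 0.982), CYTH4, an exchange factor of ARF proteins (0.981), and SLC8B1, a mitochondrial cation exchanger (0.970). HSH2D read 5.23, 5.70, 5.34 and 5.35 in siMM and 7.60, 7.73, 7.74 and 7.91 in siRE. All 4 siMM values of HSH2D lie below the cut-off, so their order in time is not read. Below it too lie the siMM values of CYTH4 at 48, 168 and 240 h (5.66, 5.71 and 5.72). The r of both genes thus rests in part on background signal. The opposite pattern was clearest for H3-3B, a histone H3.3 gene (-0.978). For IRF1 they were DPH2, an enzyme of diphthamide synthesis (0.984), SARS2, the mitochondrial seryl-tRNA synthetase (0.978), and E2F5, a cell cycle factor (0.976). ATP2B1-AS1, an antisense RNA, stood at -0.993. Of these, only E2F5 passed the test of siRE against siMM (limma adjusted p = 0.0203). DPH2, SARS2 and ATP2B1-AS1 did not (limma adjusted p = 0.121, 0.0577 and 0.0509). All 4 siRE values of IRF1 lie below the cut-off, so every r of IRF1, also with other IRF genes, rests in part on background signal. Among the 7 tested IRF genes themselves, IRF1 ran opposite to IRF7 (-0.872) and to IRF8 (-0.834), while IRF7 ran with IRF2 (0.746) and with IRF8 (0.730).

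**Figure D5:**
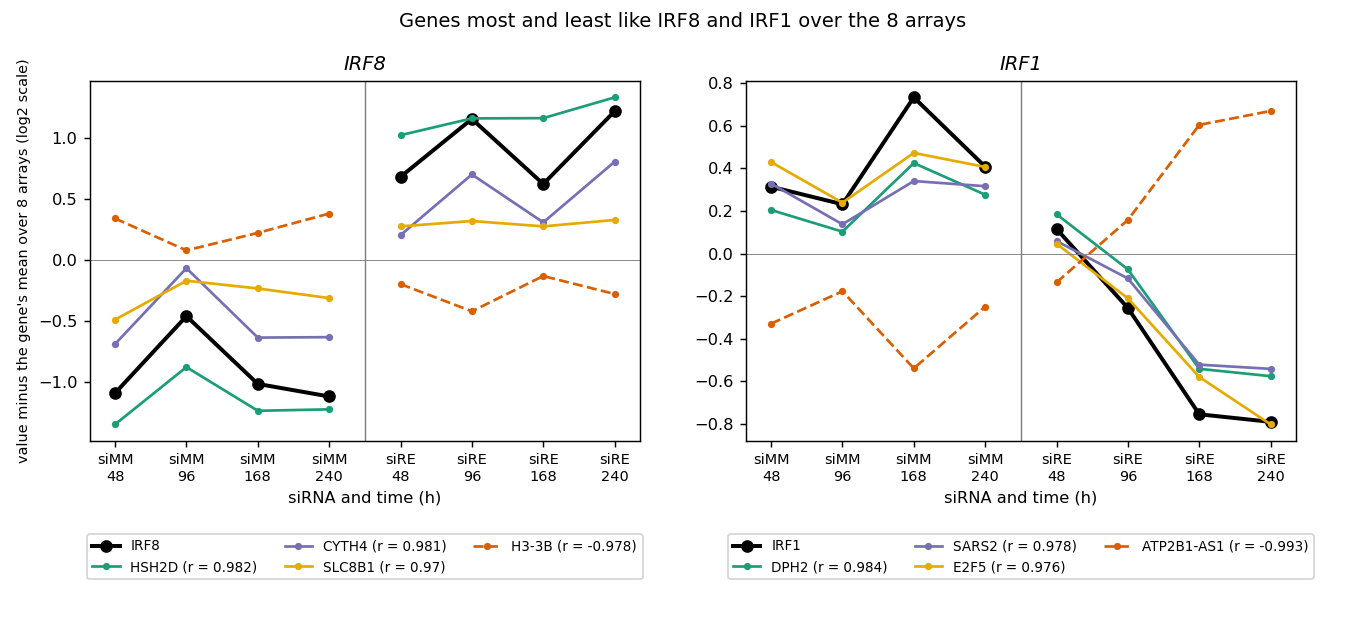
Value minus the gene's mean over 8 arrays on the log2 scale (vertical axis) against siRNA and time in h (horizontal axis) for IRF8 (left) and IRF1 (right) in black, with the 3 genes of highest r and the 1 of lowest r (dashed). IRF8 and its 3 most like genes step up between the arms already at 48 h while H3-3B steps down. DPH2, SARS2 and E2F5 fall over the times of siRE. All siRE values of IRF1 lie below the cut-off, as do the siMM values and the 48 h siRE value of ATP2B1-AS1. Below it too lie the siMM values of HSH2D and those of CYTH4 at 48, 168 and 240 h. The order of all these values in time is not read.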

How the data were processed

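Biotin-labelled cRNA of 8 Kasumi-1 samples was read on Illumina bead arrays. The deposited log2 values are the authors' processed table, made with lumi per the submitters' processing notes (no version given). How background and transformation were handled is not stated in these sources, so the scale (plain log2 or variance-stabilised) and direct folds stay uncertain. The values were not centred per probe. Array medians lay between 5.364 and 5.368 and the sorted values of any 2 arrays lay within 0.0235 of each other, the mark of quantile normalization, which was therefore kept and which hides any shift common to most transcripts. A second table, with 16 columns that no label ties to samples, was not used, and the planned neqc alternative was not run.

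Groups came from the siRNA label and times from the source names, and time pairs the arrays. Same-time deviations correlated at 0.375, 0.292, 0.212 and 0.0724 (48 to 240 h). With arrays of other times the highest values were -0.0214, 0.0664, 0.198 and 0.138. The same-time value was thus barely higher at 168 h and lower at 240 h. The cut-off of 5.90 lies above the mode of all values (5.22) by the 90th percentile of distances of lower values from it. Tests used limma 3.58.1 in R 4.3.3 (lmFit, eBayes, siRNA plus time as a factor, 3 residual and 8.16 prior degrees of freedom, Benjamini-Hochberg over 14644 probes, threshold 0.05). For change with time, the interaction of siRNA and day was tested (days 2, 4, 7 and 10). Slopes came from a fit with a slope per siRNA. On simulated data for the main comparison with 14644 probes, the test recovered 68% of probes given a change of 1 and 96% given a change of 2, with 5 false among 169 called.

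A gene is its tested probe with the highest mean. Of all probes 30112 had 1 gene symbol, 8 several and 17110 none, and 30073 matched the RefSeq table of GRCh38.p14 by Entrez number, which changed 0 symbols and gave the gene coordinates. Where an arm was below the cut-off on all its arrays, the fold is a lower bound, with each dim array raised to the cut-off. Named are all IRF probes, up to 5 called members per list by size, and for each called IRF gene the 3 genes of highest and the 1 of lowest r. The members and lists were chosen with earlier results of these data known. Promoter sequences are from RefSeq, matched by symbol for 5 of 8 genes. Alternatives were other filters, no time block, each pair left out, a floor at the cut-off, an intensity trend with a robust prior, array weights and cyclic loess.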

Additional observations from a re-analysis of the deposited data

Results flagged for a closer look

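Within an arm of 4 arrays, 1 array stood apart in 2 of 24 cases, by Dixon's test at 95%, where chance alone marks about 1 in 20. IRF8 in siMM at 96 h read 6.92, with the next siMM array at 6.37. IRF9 in siRE at 96 h read 6.44, with the next siRE array at 6.05. Both are arrays of 96 h, and the 4 arrays of an arm differ in time, so they are not repeats of one condition.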

How the results depend on the processing

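IRF8 kept its direction and its call in all 11 alternatives (1.67 to 1.91), and IRF7, IRF3, IRF5 at its brightest probe and IRF9 kept their direction and did not pass in any of them (IRF7 0.33 to 0.82). Of 98 values of the 9 tested IRF probes, 89 kept direction and side of the threshold. The count of IRF probes lower in siRE was 0 with values below the cut-off set to it and 0 to 1 with 1 pair of arrays left out. IRF1 then stood at -0.20 with that floor, which by construction shrinks a probe whose siRE values are all below background, and at -0.96, -0.63 and -0.73 without the 96, 168 or 240 h pair (-1.06 without that of 48 h). IRF2 was -0.016 without the 168 h pair, -0.105 without that of 240 h and -0.026 with array weights, and without the 240 h pair its second probe was -0.035 and the dimmer IRF5 probe -0.033. Changes per day turned to -0.024 for IRF8 and -0.043 for the dimmer IRF5 probe without the 240 h pair, among 54 values of which 50 kept direction and side. The cause of the turns was not tested. Over all probes 889 passed, against 530 without the time block, 464 with the floor, 310 with the 96 h pair left out and 251 with that of 168 h left out, and upwards 1021 with array weights, 1175 with the 48 h pair left out and 1290 with the intensity trend and robust prior. Without the time block, by which time pairs the arrays, no IRF call changed (IRF8 1.84, IRF1 -0.84). No paired analysis by replicate number was possible because the labels carry none. Signal near background limits IRF1, IRF4, IRF7 and the second IRF2 probe.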
